A study of Homo sapiens with 6 samples.

Results

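To describe how the cytosolic and mitochondrial heat shock chaperones are expressed across a breast tumor, 10 genes were followed in RNA-seq of xenografts grown from MDA-MB-231 cells, a human line of triple-negative breast cancer. They were chosen by name, as the genes most often read for the heat shock response, with earlier results of these data known. All 10 were found among the 60671 annotated genes of the deposited matrix. These are HSPA1A, HSPA1B and HSPA8 of the HSP70 family, HSPH1 and DNAJB1, which work with HSP70, HSP90AA1 and HSP90AB1 of the HSP90 family, the small heat shock protein HSPB1, and HSPD1 and HSPE1 of the mitochondrial chaperonin.

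All samples came from wild-type (WT) MDA-MB-231 cells, labelled as epithelial, that had been mixed with Matrigel and placed orthotopically, in the fourth pair of mammary fat pads. The hosts were female NSG mice aged 6 to 8 weeks, an immunodeficient strain without T, B and NK cells. Tissue from the tumor core (TC) was compared with tissue from the tumor margin (TM), with 3 samples of each and no other treatment or allele. All tumors derive from 1 cell line and were grown without adaptive immunity, which limits them as a model. Each group came from 3 mice, and the labels do not tie a TC sample to a TM sample of the same mouse.

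Chaperones bind unfolded or newly made proteins and help them to reach or regain their shape. HSP70 proteins bind short exposed stretches of a client in a cycle that DNAJ proteins start and nucleotide exchange factors such as HSPH1 end. Clients such as kinases and steroid receptors may then pass to HSP90, small heat shock proteins hold unfolded proteins in solution, and the HSPD1 and HSPE1 chamber folds proteins imported into mitochondria. When unfolded proteins build up, the transcription factor HSF1 is released from chaperones, forms trimers and binds heat shock elements, which are repeats of a GAA unit in alternating orientation. HSPA1A, HSPA1B, DNAJB1 and HSPB1 are known as strongly inducible genes, whereas HSPA8, HSP90AB1 and the chaperonin genes are also expressed in unstressed cells, and tumors often carry high levels of many of them.

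The heat shock elements before the start sites are shown first, since they are the sequence feature through which these genes are known to be regulated. RefSeq promoters on GRCh38.p14 were matched for all 10 genes, with 16 start sites in all, and the 250 bases before each start were searched for GAA units in alternating orientation on both strands. A three-unit element was GAA, TTC and GAA or TTC, GAA and TTC, each unit parted from the next by 2 bases of any kind. It was found before 155 of 35116 RefSeq promoters, or 0.441%, and before 4 of the 16 start sites, which belong to 4 of the 10 genes. A gene was counted if any of its start sites had a match. A match is a description of the letters and not of binding, which was not measured. In each window below, written 5′ to 3′ on the strand of the gene, capitals mark the element.
HSP90AA1, chr14:102087111-102087140, minus strand, 76 bases before the start: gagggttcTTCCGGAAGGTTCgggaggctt
HSP90AB1, chr6:44247823-44247852, plus strand, 100 bases before the start: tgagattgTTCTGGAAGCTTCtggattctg
HSP90AB1, chr6:44247770-44247799, plus strand, 153 bases before the start: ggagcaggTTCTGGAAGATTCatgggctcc
HSPA8, chr11:123062170-123062199, minus strand, 43 bases before the start: cgggccccTTCTGGAAGGTTCtaagatagg
HSPA8, chr11:123062345-123062374, minus strand, 218 bases before the start: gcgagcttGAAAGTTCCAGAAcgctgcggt
HSPD1, chr2:197500061-197500090, minus strand, 228 bases before the start: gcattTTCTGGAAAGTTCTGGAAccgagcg
In HSPD1 the capitals cover 18 bases, in which the matches overlap. HSPD1 and HSPE1 stand head to head on chromosome 2, with RefSeq starts at 197499840 on the minus strand and 197500379 on the plus strand. The HSPD1 element lies between these starts. A further HSPD1 start is listed at 197500274, and the element lies downstream of that start. The 250 bases before HSPE1 itself do not reach the element.

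A shorter, two-unit form, GAA and TTC or TTC and GAA with the same spacing of 2 bases, is contained in every three-unit element. It was found before 4067 promoters, or 11.6%, and before 8 of the 10 genes. The share of promoters is per start site, whereas a gene with several start sites was counted if any had a match. The strongly inducible HSPA1A, HSPA1B, DNAJB1 and HSPB1 carried this form without the third unit in this exact spacing. HSP90AA1, the inducible HSP90 gene, has the three-unit element shown above. HSPA1A and HSPA1B are near-identical copies on chromosome 6 whose 250 upstream bases were 93.6% identical, and both windows are shown for their shared element.
HSPA1A, chr6:31815426-31815455, plus strand, 99 bases before the start: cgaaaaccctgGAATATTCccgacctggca
HSPA1B, chr6:31827622-31827651, plus strand, 98 bases before the start: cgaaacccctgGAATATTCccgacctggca
DNAJB1, chr19:14518426-14518455, minus strand, 40 bases before the start: ggcgggctctgGAAGCTTCcgccggacggg
DNAJB1, chr19:14518456-14518485, minus strand, 70 bases before the start: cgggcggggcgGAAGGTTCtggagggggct
HSPB1, chr7:76302480-76302509, plus strand, 175 bases before the start: ccttaacgagaGAAGGTTCcagatgagggc
Neither form matched in the windows of HSPE1 and HSPH1, which says only that these exact letters are not there.

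Values are TPM, a measure of transcript abundance per length that keeps no sequencing depth, so precision was judged from the spread between samples alone. A gene was tested if 3 or more samples had 1 TPM or more, which held for 13861 genes and all 10 members. Every difference below is a mean of log2(TPM + 1) in TC less that in TM, with standard errors (SE), intervals and p-values from limma across all tested genes and Benjamini-Hochberg adjustment over them. TM replicate 3 stood apart in measures of its whole column. Its column summed to 994381 and not 1000000 TPM, and it held 21.1 TPM in loci outside the annotation against 1573.7 to 2643 TPM in the other samples. Skeletal muscle markers summed to 166.31 and 437.35 TPM in TM replicates 1 and 2, to 1.7 TPM in TM replicate 3 and to 3.55 to 7.43 TPM in TC, and fibroblast markers to 473.71, 1001.41 and 88.51 TPM in TM against 65.13 to 223.44 TPM in TC. Most of the fibroblast sum came from COL1A1, at 44.71 to 698.15 TPM. LUM and PDGFRA reached at most 0.38 and 0.3 TPM, and DCN was above 0 only in TM replicate 1. PDGFRB was higher in every TM sample than in any TC sample. Mitochondrially encoded genes took 6.08 to 8.82% of TPM in TC and 9.23 to 11.1% in TM. The cell line label was met by its markers. The mesenchymal and MDA-MB-231 markers summed to 4603.7 to 6083.18 TPM, most of it from VIM at 3797.38 to 5283.09 TPM. The others of this list lay between 42.08 (EGFR) and 290.02 TPM (TGFBI). The 4 genes known as low or absent in this line, ESR1, PGR, CDH1 and EPCAM, summed to at most 6.02 TPM. The study's notes name no removal of mouse reads, and in bulk tissue fewer cells of a type and less RNA per cell cannot be told apart.

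First, the level of each member was compared with the others. The 10 genes together took 0.425 to 0.575% of all TPM in a sample. HSPA8, HSPB1 and HSP90AB1 led with mean levels over the 6 samples of 1201, 1138 and 1039 TPM, their ranges overlapped, and these 3 genes made up 65.2 to 69.5% of the summed TPM of all 10. A middle group followed in which neighbouring ranges also overlapped, with HSPA1B at 378.6, HSP90AA1 at 372.1, HSPE1 at 361.1, HSPD1 at 240.1 and DNAJB1 at 231.6 TPM. HSPH1 at 55.26 TPM was below DNAJB1 in all 6 samples, and HSPA1A at 4.915 TPM was below HSPH1 in all 6. By mean level, 8 members were at percentile 96.0 or above among the tested genes, HSPH1 was at percentile 83.0 and HSPA1A at percentile 25.2. The listed levels of HSPA1A and HSPA1B rest on an uncertain split of reads between these near-identical copies, as described below.

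Next, TC was compared with TM. None of the 10 members passed an adjusted p-value of 0.05, against 0.137% of all tested genes (19 of 13861), so a count of 0 in 10 is what the background gives. At an unadjusted p-value under 0.05, 1 member (HSPA8) passed, lower in TC, where 16.2% of all tested genes passed and 14.2% did so lower in TC. The samples of both groups overlapped for all 10 members, while in 18.9% of the tested genes all TC samples were below all TM samples and in 3.28% all were above. The difference was below 0 in 6 members and above 0 in 4, with a median of -0.056, beside a median of -0.14 and 67.0% below 0 for all tested genes. After rescaling by median-of-ratios factors the median of all tested genes was 0.021, that of the members 0.12, and 3 members were lower in TC beside 47.3% of all tested genes. After quantile normalization the members were the lower ones, with a median of -0.096 beside 0.014 for all tested genes. Without TM replicate 3, again no member passed the adjusted threshold, and the median was -0.052 for the members and -0.19 for all tested genes.

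**Figure D1:**
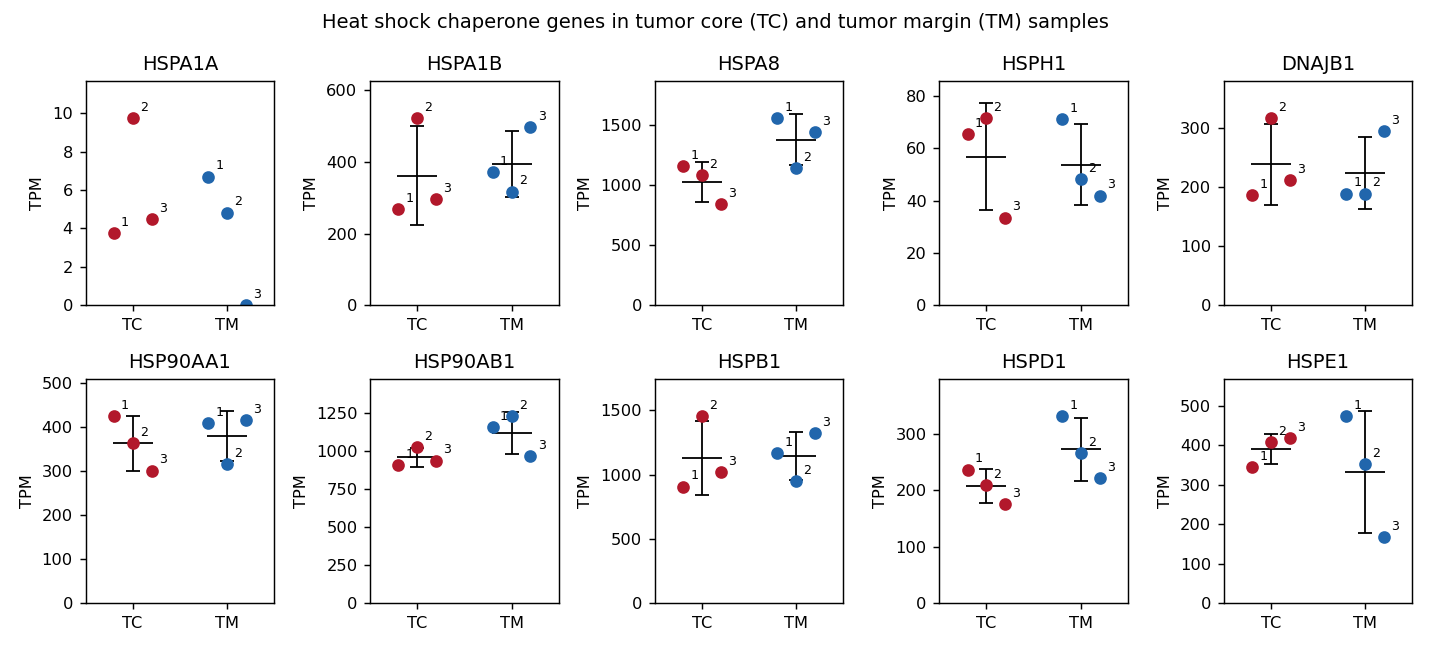
TPM (y axis, linear, from 0, own scale per gene) of each of the 10 heat shock chaperone genes in TC (red) and TM (blue), with the replicate number beside each point and the mean ± SD of 3 samples as black bars. No bars are drawn for HSPA1A, which is listed at 0 in TM replicate 3. The TC and TM points overlap in every panel.

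The HSP70 genes were examined first. HSPA8 encodes the constitutive HSP70 of the cytosol, which folds new proteins and uncoats clathrin vesicles (ENSG00000109971, chr11:123057489-123063230, minus strand). Its level was 1154.67, 1081.8 and 840 TPM in TC replicates 1, 2 and 3 and 1553.43, 1142.62 and 1436.21 TPM in TM replicates 1, 2 and 3. The groups met only where TC replicate 1 lay just above TM replicate 2. The mean was 1025 ± 164.7 TPM (SD, n = 3) in TC and 1377 ± 211.6 TPM (SD, n = 3) in TM, a log2 difference of -0.43 (SE 0.17, 95% interval -0.82 to -0.033, limma adjusted p = 0.274). Rescaled by median-of-ratios factors, it was -0.25 (limma adjusted p = 0.565), and after quantile normalization -0.51 (limma adjusted p = 0.312). The adjusted p-value ranged from 0.191 to 0.569 over 17 alternatives.

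HSPA1B encodes the stress-inducible HSP70 (ENSG00000204388, chr6:31827735-31830255, plus strand). It was at 268.4, 521.63 and 295.23 TPM in TC and 371.97, 317.18 and 497.16 TPM in TM. TC replicate 2 and TM replicate 3 were high and the other 4 samples lower, in both groups alike. The difference was -0.17 (SE 0.27, 95% interval -0.78 to 0.44, limma adjusted p = 0.816), and 1.94-fold separated the highest from the lowest sample.

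HSPA1A, which encodes an HSP70 protein all but identical to that of HSPA1B, was at a low level in the same samples (ENSG00000204389, chr6:31815464-31817946, plus strand). It was at 3.77, 9.73 and 4.47 TPM in TC and 6.7 and 4.82 TPM in TM replicates 1 and 2, and was listed at 0 in TM replicate 3. That sample held the second highest HSPA1B value, so the listed values of the copies went apart there. Whether the genes did cannot be told, since reads shared by both copies are hard to assign. With all samples the log2 difference was 0.88 (SE 0.72, 95% interval -0.77 to 2.53, limma adjusted p = 0.614), and without TM replicate 3 it was -0.033. Of the windows of 150 bases, the stated read length, in the HSPA1A transcripts, 63.2% are also present in those of HSPA1B, and 66.0% of the HSPA1B windows are present in HSPA1A. The split between both genes is therefore uncertain. HSPA1A was 1.39 to 1.83% of their sum in 5 samples, and the sum came to 272.17, 531.36 and 299.7 TPM in TC and 378.67, 322 and 497.16 TPM in TM. Another annotated gene without a common name, AL671762.1, shares 36.5% of the exon bases of HSPA1B on the same strand and was at 12.23 to 36.15 TPM (it was chosen after the values were seen).

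Of the partners of HSP70, DNAJB1 is the J-domain protein that delivers misfolded clients to inducible HSP70 (ENSG00000132002, chr19:14514770-14529770, minus strand). It was at 186.68, 316.77 and 212.38 TPM in TC and 189.38, 189.18 and 295.08 TPM in TM. As in HSPA1B, TC replicate 2 and TM replicate 3 were the highest samples. The difference was 0.083 (SE 0.24, 95% interval -0.47 to 0.63, limma adjusted p = 0.908). TECR, on the opposite strand, overlaps 5.75% of the DNAJB1 exon bases and was at 141.28 to 219.68 TPM. Reads had been aligned in an orientation mode, but whether genes were counted by strand was not stated.

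HSPH1 encodes HSP110, which releases ADP from HSP70 and with it pulls apart aggregates (ENSG00000120694, chr13:31134974-31162388, minus strand). It was at 65.35, 71.42 and 33.5 TPM in TC and 71.16, 48.29 and 41.87 TPM in TM. The highest and the lowest sample were both in TC, 2.13-fold apart. The difference was 0.040 (SE 0.31, 95% interval -0.66 to 0.74, limma adjusted p = 0.972).

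Both cytosolic HSP90 genes were then compared. HSP90AA1 encodes the inducible isoform, HSP90 alpha (ENSG00000080824, chr14:102080738-102139699, minus strand). It was at 425.49, 363.81 and 301.09 TPM in TC and 410.27, 315.69 and 416.37 TPM in TM. Both groups held high and low samples. The difference was -0.070 (SE 0.17, 95% interval -0.46 to 0.32, limma adjusted p = 0.885).

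HSP90AB1 encodes the constitutive isoform, HSP90 beta (ENSG00000096384, chr6:44246166-44253888, plus strand). It was at 910.19, 1028.62 and 937.54 TPM in TC and 1160.63, 1231.57 and 965.88 TPM in TM. TM replicates 1 and 2 exceeded every TC sample and TM replicate 3 did not. The difference was -0.22 (SE 0.13, 95% interval -0.53 to 0.091, limma adjusted p = 0.493). It shrank to -0.038 with median-of-ratios factors and was -0.27 after quantile normalization. The beta isoform had the smallest spread within groups of the 10 members, an SD of 0.14 on the log2 scale.

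HSPB1 encodes HSP27, a small heat shock protein that forms large oligomers and holds unfolded clients (ENSG00000106211, chr7:76302544-76304295, plus strand). It was at 906.73, 1456.11 and 1021.76 TPM in TC and 1167.26, 952.11 and 1325.31 TPM in TM. Again TC replicate 2 and TM replicate 3 were the highest. The difference was -0.042 (SE 0.20, 95% interval -0.51 to 0.42, limma adjusted p = 0.951).

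HSPD1 encodes HSP60, the barrel of the mitochondrial chaperonin (ENSG00000144381, chr2:197486581-197516737, minus strand). It was at 236.58, 209.3 and 175.81 TPM in TC and 331.71, 265.9 and 221.03 TPM in TM. TM replicate 3 was the only TM sample below a TC sample, namely below TC replicate 1. The mean was 207.2 ± 30.44 TPM (SD, n = 3) in TC and 272.9 ± 55.67 TPM (SD, n = 3) in TM, and the difference was -0.39 (SE 0.18, 95% interval -0.80 to 0.023, limma adjusted p = 0.342). With median-of-ratios factors it was -0.21 and after quantile normalization -0.40, and the adjusted p-value ranged from 0.15 to 0.674 over 17 alternatives.

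HSPE1 encodes HSP10, the lid of the same chamber (ENSG00000115541, chr2:197499994-197503457, plus strand). It was at 345.65, 408.44 and 417.76 TPM in TC and 474.2, 352.85 and 167.88 TPM in TM. TM replicate 1 was the highest sample and TM replicate 3 the lowest, 2.82-fold apart, the widest range of the 9 members above 0 in all samples. The difference was 0.36 (SE 0.33, 95% interval -0.40 to 1.11, limma adjusted p = 0.661), and without TM replicate 3 it was -0.071.

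**Figure D2:**
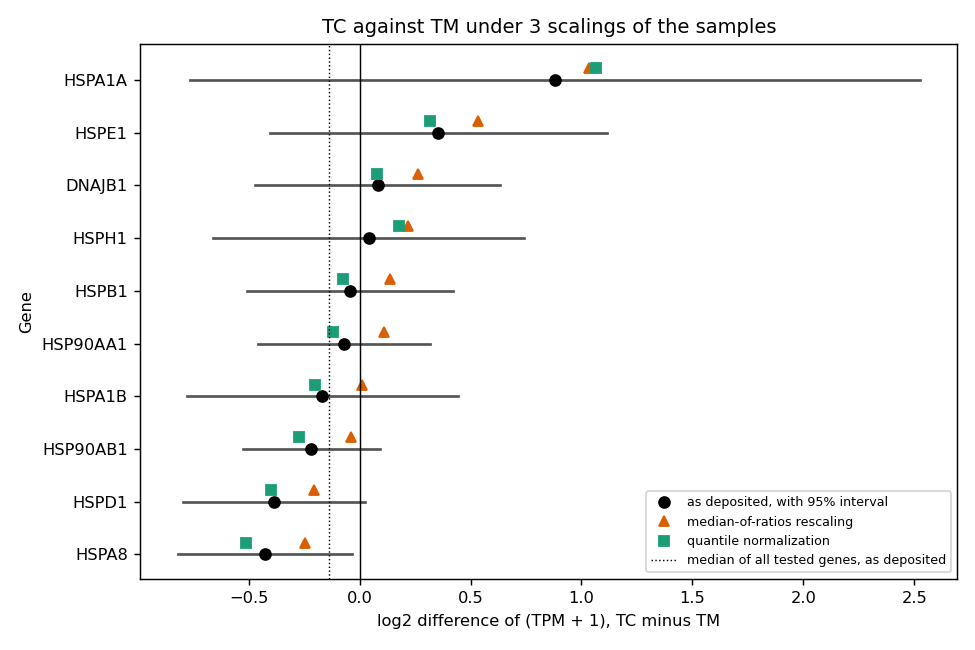
Log2 difference of TPM + 1, TC minus TM (x axis), for each heat shock chaperone gene (y axis). Black points and lines give the deposited values with their 95% intervals, orange triangles the values after median-of-ratios rescaling and green squares after quantile normalization. Only the interval of HSPA8 stays below 0, and rescaling by median-of-ratios moves every gene to the right, HSPA8 to -0.25. Quantile normalization moves HSPA8 to the left, to -0.51.

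The low HSPE1 value of TM replicate 3 was found beside a high value of its read-through gene. HSPE1-MOB4 (chr2:197500413-197550726, plus strand) is an annotated transcript that runs from HSPE1 into the next gene, MOB4, and shares 168 of the 351 coding bases of HSPE1. It was at 0.51, 0.54 and 2.79 TPM in TC and 1.41, 6.34 and 417.4 TPM in TM. In TM replicate 3 it was 71.3% of the sum of both genes, against 0.132 to 1.77% in the other 5 samples. That sum came to 346.16, 408.98 and 420.55 TPM in TC and 475.61, 359.19 and 585.28 TPM in TM, and TM replicate 3 went from the lowest to the highest sample. With copies and the read-through gene added to their parents, the HSPE1 difference was -0.25 (SE 0.18, limma adjusted p = 0.579). MOB4 itself, which encodes a partner of striatin complexes, was at 22.48 to 27.33 TPM in TC and 18.32 to 22.73 TPM in TM, with its lowest value in TM replicate 3. Of the 135 annotated read-through genes in the matrix, HSPE1-MOB4 was the only one with at least 10 TPM and 10 times every other sample in TM replicate 3, and 0 met this in each other sample. Among all annotated genes 20 met it in TM replicate 3 and 7 to 21 in the others. The split of reads between HSPE1 and its read-through is thus uncertain in this matrix. Given its column sum and its near lack of loci outside the annotation, it is not known whether TM replicate 3 was quantified in the same run as the other samples, which bears on this value and on the 0 of HSPA1A and was not tested.

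HSPE1 and HSPD1 also overlap on opposite strands, over 281 exon bases that are 14.2% of those of HSPE1 and 6.62% of those of HSPD1. Since the chamber needs both proteins, the ratio of HSPE1 to HSPD1 within each sample was compared. This ratio stood at 1.461, 1.951 and 2.376 in TC and 1.43, 1.327 and 0.7595 in TM, which put every TC sample above every TM sample, with TC replicate 1 and TM replicate 1 close together. The log2 difference was 0.74 (two-sided exact permutation p = 0.1, the smallest p-value that 3 samples against 3 allow, or 0.5 after Benjamini-Hochberg adjustment over 5 ratios). Without TM replicate 3 the difference was 0.46. With copies and the read-through gene added it was 0.15 (exact permutation p = 0.8), and the ratio in TM replicate 3 was then 2.648, the highest of the 6 samples.

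**Figure D3:**
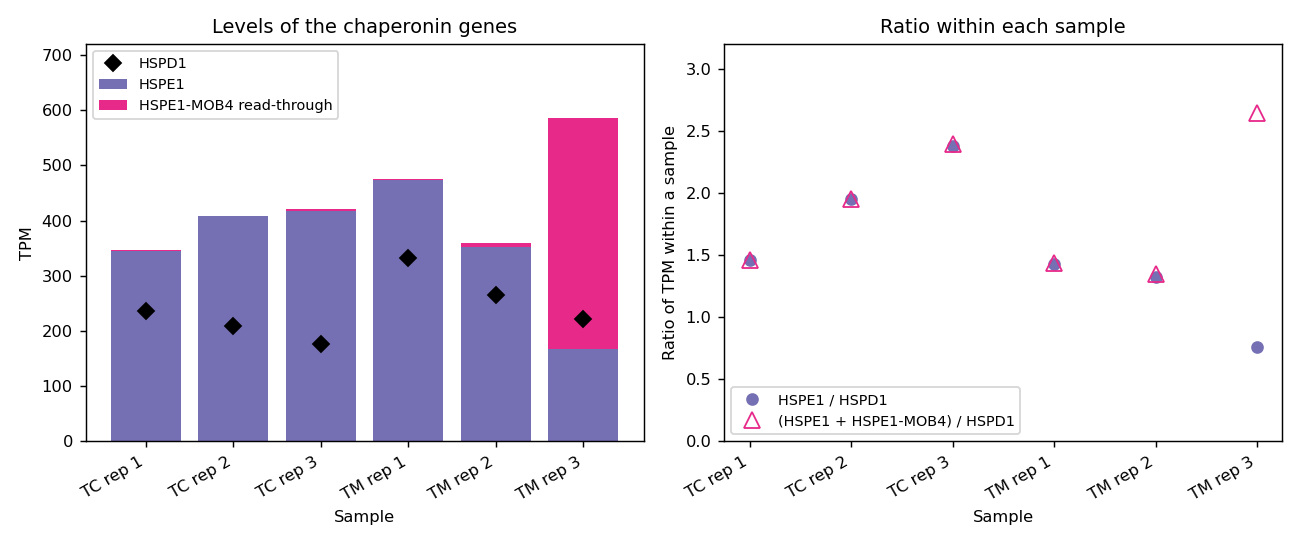
Left, TPM (y axis) of HSPE1 (violet bars), of the read-through gene HSPE1-MOB4 stacked on it (pink) and of HSPD1 (black diamonds) in each sample. Right, ratio of HSPE1 to HSPD1 within each sample (violet points) and the same with HSPE1-MOB4 added (open triangles). Both coincide except in TM replicate 3, where 0.7595 becomes 2.648.

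The other ratios within samples asked whether inducible and constitutive partners kept their proportion, a measure that no rescaling of whole samples can move. The inducible HSP70 genes, HSPA1A plus HSPA1B, stood at 0.2357, 0.4912 and 0.3568 of HSPA8 in TC and at 0.2438, 0.2818 and 0.3462 in TM (log2 difference 0.27, exact permutation p = 0.6). TC replicate 2 was highest, and without it the difference was 0.012. HSP90AA1 stood at 0.4675, 0.3537 and 0.3211 of HSP90AB1 in TC and at 0.3535, 0.2563 and 0.4311 in TM (log2 difference 0.15, exact permutation p = 0.6). DNAJB1 over HSPA8 stood at 0.1617, 0.2928 and 0.2528 in TC and 0.1219, 0.1656 and 0.2055 in TM (log2 difference 0.51, exact permutation p = 0.3). HSPH1 over HSPA8 stood at 0.0566, 0.06602 and 0.03988 in TC and 0.04581, 0.04226 and 0.02915 in TM (log2 difference 0.47, exact permutation p = 0.3). Each of these 4 ratios had overlapping groups, and over the 5 ratios the smallest adjusted p-value was 0.5.

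The summed TPM of all 10 members came to 4504, 5468 and 4240 in TC and 5737, 4820 and 5367 in TM. The mean was 4737 ± 646.5 TPM (SD, n = 3) in TC and 5308 ± 461.1 TPM (SD, n = 3) in TM, and the log2 difference of -0.17 had a two-sided exact permutation p of 0.3. After median-of-ratios rescaling it was 0.011 (exact permutation p = 1).

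The spread between samples of a group was compared with that of other genes. The SD within groups on the log2 scale was 0.43 for HSPA1B, 0.24 for HSPA8, 0.50 for HSPH1, 0.24 for HSP90AA1, 0.14 for HSP90AB1, 0.38 for DNAJB1, 0.30 for HSPB1, 0.26 for HSPD1 and 0.55 for HSPE1, and 1.21 for HSPA1A. The median over the 2358 tested genes at or above the level of HSPH1 was 0.19, and over all tested genes it was 0.27. HSP90AB1 was below the former value and the other 8 members of that level were above it, a description without a test. The SDs of HSPA1A and HSPE1 include their uncertain values in TM replicate 3.

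The pattern of this spread was examined next, as the root mean square (RMS) difference between genes of the centred log2(TPM + 1) over the 6 samples. For HSPA1B the nearest other member was HSPB1 (RMS 0.14), which ranked 7 among 13860 other tested genes. For DNAJB1 it was also HSPB1 (RMS 0.15), at rank 25, and for HSPB1 it was HSPA1B, at rank 41. HSPA1B, DNAJB1 and HSPB1 were all highest in TC replicate 2 and second highest in TM replicate 3, 1 sample of each group. The closeness of HSPA8 and HSPD1 to each other (RMS 0.19) was only at ranks 1421 and 1369, and that of HSPH1, HSP90AA1, HSP90AB1 and HSPE1 to their nearest members, HSPD1, HSPA8, HSPD1 and HSP90AB1, at ranks 2093, 1886, 3201 and 3330. HSPA1A was nearest to HSPE1, at rank 77, with RMS 0.64, both being lowest in TM replicate 3. Both low values are uncertain, since the split of reads with HSPA1B and with HSPE1-MOB4 is not settled. With the read-through gene added, HSPE1 was highest in TM replicate 3. By sample, 5 of the 10 members had their highest value in TC replicate 2 and 3 in TM replicate 1, while 4 had their lowest in TC replicate 1, 4 in TC replicate 3 and 2 in TM replicate 3.

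**Figure D4:**
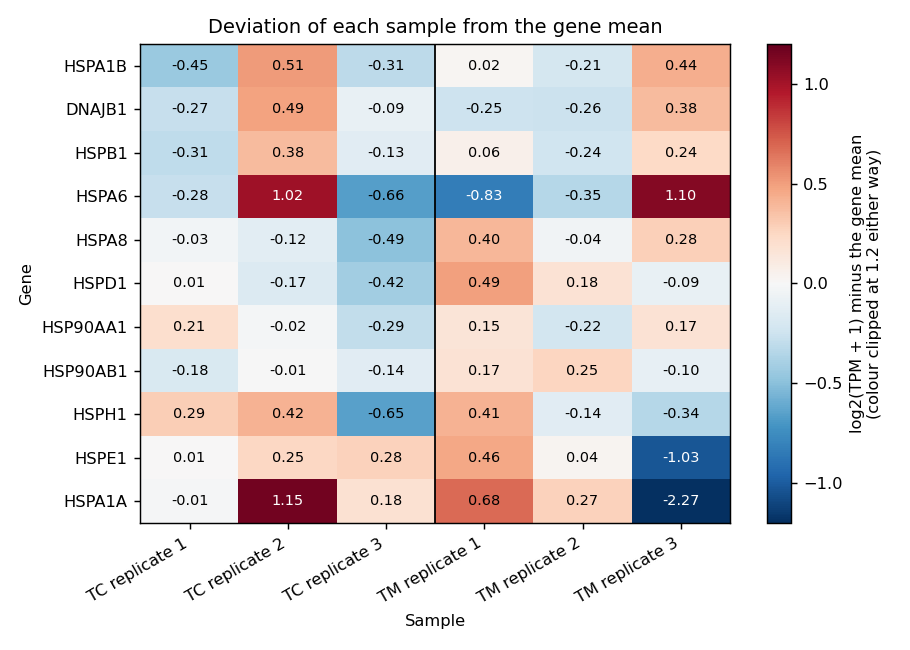
Log2(TPM + 1) of each heat shock chaperone gene and of HSPA6 (rows) minus its mean over the 6 samples (columns; TC left and TM right of the line), as colour and number. HSPA1B, DNAJB1, HSPB1 and HSPA6 are highest in TC replicate 2 and TM replicate 3, and HSPE1 and HSPA1A are lowest in TM replicate 3.

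HSPA6, a strictly inducible HSP70 gene outside the 10, shared the 2 high samples, with 13.07, 33.68 and 9.82 TPM in TC and 8.59, 12.45 and 35.58 TPM in TM. BAG3, an HSF1 target also outside the 10, did so only in part. It was at 69.81, 98.81 and 70.97 TPM in TC and 129.81, 79.37 and 95.65 TPM in TM. TM replicate 1 was its highest sample, with TC replicate 2 and TM replicate 3 next. Immediate-early genes, which respond to handling of tissue as well as to growth signals, shared both high samples in 2 of 7 genes, JUN and IER2, and the other 5 had other samples highest. JUN was at 76.11, 122.46 and 60.19 TPM in TC and 95.01, 61.67 and 152.32 TPM in TM, with the same 2 samples highest. FOS was at 9.21, 8.67 and 26.94 TPM in TC and 21.37, 13.74 and 12.46 TPM in TM, as an example of the latter. The 7 immediate-early genes summed to 248.77 to 322.28 TPM in TC and 296.28 to 378.13 TPM in TM, none was called, and their part in the pattern was not tested. The genes nearest in pattern to HSPA8 were CBX2, FASTKD2 and UNC13B (RMS 0.038 to 0.045), and to HSPD1 ZNF236, MRPS9 and HIRA (RMS 0.047 to 0.048). The 3 nearest to HSPA1A had no symbol and RMS of 0.19 to 0.31.

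Processed copies can take reads from their parents, so the pseudogenes of the members were counted. HSPA8 has 17, HSP90AA1 5, HSP90AB1 6, DNAJB1 2, HSPB1 2, HSPD1 18 and HSPE1 26 in the matrix. They never exceeded 2.08% of the summed TPM of parent and copies. HSP90AB3P, a copy of HSP90AB1, was at 2.32, 3.91 and 6.33 TPM in TC and 9.25, 20.62 and 2.56 TPM in TM. HSPD1P1 was at 0.37, 0.61 and 1.09 TPM in TC and 2.63, 4.79 and 0.96 TPM in TM, and HSPB1P1 at 2.54, 2.11 and 0 TPM in TC and 1.61, 0 and 9.03 TPM in TM. These copies shared at most 0.0208% of the 150-base windows of their parents.

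The rest of the chaperone network was described from 10 further lists with 87 genes, of which 77 were tested. None of them passed an adjusted p-value of 0.05. At an unadjusted p-value under 0.05, 13 were lower and 4 higher in TC, next to 14.2% and 1.93% of all tested genes. Of the 77 differences 54 were below 0 and 23 above, with a median of -0.15 that became 0.018 after median-of-ratios rescaling. The counts of each list are to be read against the 67.0% of all tested genes whose difference was below 0.

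Among the heat shock factors and their binding protein, HSF1 encodes the master regulator of the response and was at 68.8, 74.02 and 68.44 TPM in TC and 90.41, 87.67 and 86.26 TPM in TM. All TC samples were below all TM samples. Its difference was -0.32 (SE 0.12, limma adjusted p = 0.226), and -0.14 after median-of-ratios rescaling. HSF4, known for its role in the lens, was at 8.26, 6.63 and 4.73 TPM in TC and 18.93, 24.15 and 34.53 TPM in TM. Its difference of -1.82 (SE 0.27, limma adjusted p = 0.0658) was the nearest of the network to the threshold, with adjusted p-values of 0.0441 to 0.236 over the alternatives and the lowest from robust empirical Bayes. HSF2, a partner of HSF1, was at 10.52, 7.15 and 9.08 TPM in TC and 11.85, 9.93 and 13.59 TPM in TM. HSBP1, which binds HSF1 trimers, was at 130.51, 137.57 and 161.15 TPM in TC and 124.57, 108.24 and 60.38 TPM in TM, a difference of 0.60 (SE 0.25, limma adjusted p = 0.291). Without TM replicate 3 it came to 0.29.

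The HSP70 system was otherwise mixed. Of 7 tested HSP70 and HSP110 genes, 4 had a difference below 0 and 3 above. HSPA13, a microsomal HSP70, was at 33.27, 25.77 and 22.99 TPM in TC and 17.3, 16.41 and 19.71 TPM in TM (difference 0.58, limma adjusted p = 0.178), and HSPA12A was low and had a difference of -0.56 (limma adjusted p = 0.264). Of 11 cytosolic DNAJ genes 10 had a difference below 0, with a list median of -0.14 beside -0.14 for all tested genes, and DNAJC5 and DNAJC9 led at -0.27 and -0.22. Of 7 nucleotide exchange factors 5 were below 0, among them BAG3, an HSF1 target that hands HSP70 clients to autophagy, at -0.33, and HSPBP1 at -0.20. None of the DNAJ genes or exchange factors passed even an unadjusted p-value of 0.05.

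Of 15 HSP90 co-chaperones 13 had a difference below 0 and 3 of them an unadjusted p-value under 0.05, beside 67.0% and 14.2% of all tested genes. SGTA, which triages hydrophobic proteins, had a difference of -0.36 (limma adjusted p = 0.218). STIP1 (HOP), which bridges HSP70 and HSP90, was at 156.46, 183.31 and 137.78 TPM in TC and 207.75, 186.85 and 203.3 TPM in TM, a difference of -0.33 (limma adjusted p = 0.286). The list median of -0.23 became -0.046 after median-of-ratios rescaling.

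The 8 subunits of TRiC, the cytosolic chaperonin that folds actin and tubulin, were all below 0, and 1 of them passed an unadjusted p-value of 0.05, beside the same 67.0% and 14.2% of all tested genes. TCP1 was at 160.08, 162.18 and 134.45 TPM in TC and 255.05, 207.56 and 171.4 TPM in TM, a difference of -0.46 (limma adjusted p = 0.230), and CCT3 had a difference of -0.26. The list median was -0.22, but -0.039 after rescaling. Prefoldin, which delivers actin and tubulin to TRiC, had all 6 subunits above 0 and a list median of 0.14, or 0.32 after rescaling. PFDN4 was at 93.06, 118.89 and 142.98 TPM in TC and 87.39, 70.27 and 70.99 TPM in TM, a difference of 0.61 (limma adjusted p = 0.151), and PFDN5 had a difference of 0.34 (limma adjusted p = 0.183).

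In mitochondria, the further chaperones and proteases were below 0 in 7 of 11 genes, 4 of them with an unadjusted p-value under 0.05, where the background is again 67.0% and 14.2%, and had a list median of -0.30, or -0.13 after rescaling. HSPA9 (mortalin), the HSP70 that pulls proteins into the matrix and hands them to the HSPD1 and HSPE1 chamber, was at 123.63, 101.34 and 100.51 TPM in TC and 175.83, 166.37 and 148.89 TPM in TM. All TC samples were below all TM samples, and the difference was -0.59 (SE 0.14, limma adjusted p = 0.0964), beside -0.39 for HSPD1. CLPB, a disaggregase of the intermembrane space, had a difference of -0.75 (limma adjusted p = 0.201). In the endoplasmic reticulum, 3 of 7 genes were below 0 and the list median was 0.21, or 0.37 after rescaling. HYOU1 had a difference of -0.41 (limma adjusted p = 0.227). HSPA5 (BiP), a marker of the unfolded protein response, had one of -0.26 (limma adjusted p = 0.472). The 4 genes above 0 had differences of 0.21 to 0.48.

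Of 8 other small heat shock proteins only CRYAB, which is abundant in muscle and lens, reached the filter. It was at 1.37, 0.49 and 1.88 TPM in TC and 11.29, 13.69 and 1.17 TPM in TM. Its 2 high samples were the TM replicates with summed skeletal muscle markers of 166.31 and 437.35 TPM, and the part of muscle in this value was not tested. The difference was -1.76 (SE 0.68, limma adjusted p = 0.255), and -2.63 without TM replicate 3 (limma adjusted p = 0.0387).

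**Figure D5:**
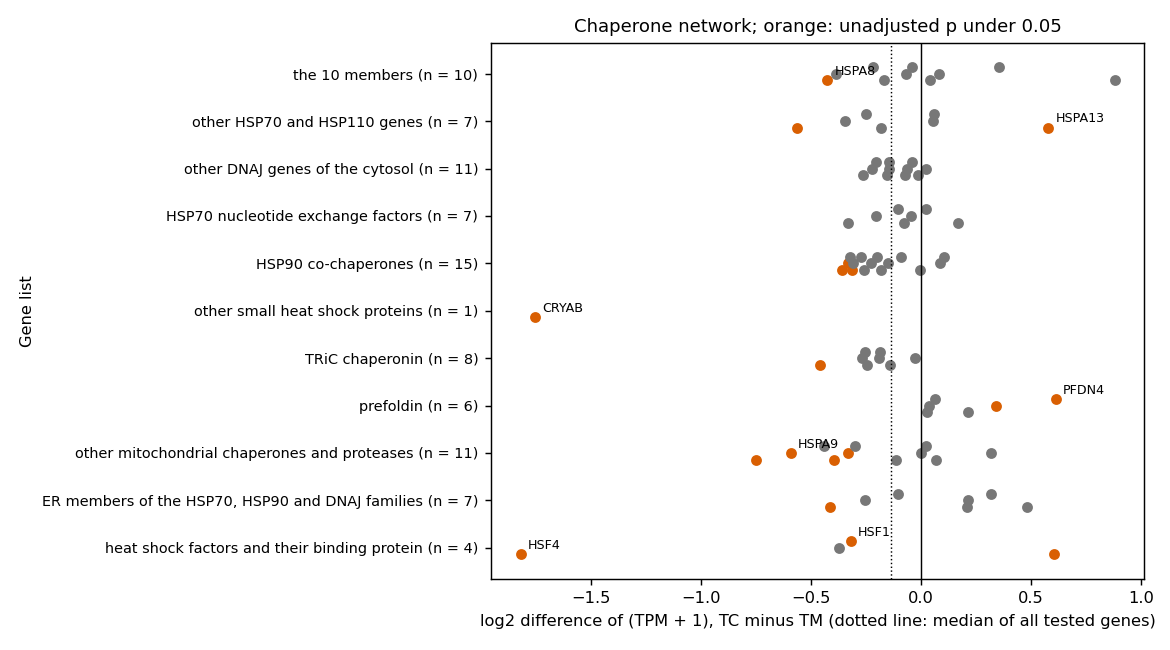
Log2 difference of TPM + 1, TC minus TM (x axis), for the 10 heat shock chaperone genes (top) and each tested gene of the 10 further lists (y axis). Each point is a gene, orange at an unadjusted p-value under 0.05, and the dotted line is the median of all tested genes (-0.14). The TRiC subunits lie below 0, as do 67.0% of all tested genes, and the prefoldin subunits above it.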

How the data were processed

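RNA of 6 xenograft samples, 3 TC and 3 TM, had been sequenced from TruSeq libraries as paired reads. The authors trimmed reads with SeqPrep and Sickle, aligned them with HISAT2, assembled with StringTie against a reference and quantified genes with RSEM, and they deposited TPM per gene. The submitters' processing notes name hg38, and the annotation release is not given in the sources used here. TPM keeps no depth, so the study's DESeq2 could not be run.

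Here, log2(TPM + 1) of 13861 genes was fitted by limma 3.58.1 in R 4.3.3 (empirical Bayes with trend, no covariate, two-sided, tested on simulated data), with Benjamini-Hochberg adjustment and calls under 0.05. Groups and replicate numbers come from the sample titles. Gene positions and exons are those of GENCODE v29 on GRCh38, and promoters those of RefSeq.

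The members and lists were chosen with earlier results of these data known. Named are the 10 members, HSF1 and HSF2, the leading 2 genes of each list by p-value, copies with a mean of at least 1 TPM, the read-through gene and the 3 nearest genes in pattern to HSPA1A, HSPA8 and HSPD1. Other names (HSPA6, JUN, FOS, IER2, HSBP1, MOB4, TECR and those of the fibroblast list) were chosen after the values were seen. Alternatives were other scalings, filters, pseudocounts and moderation, the replicate number as a block, and leaving out each sample. The summing of copies and of the read-through gene with their parents was added after the values were seen.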

Additional observations from a re-analysis of the deposited data

Results flagged for a closer look

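The read-through gene HSPE1-MOB4, which belongs to no comparison of the study, was listed at 417.4 TPM in TM replicate 3 and at 0.51 to 6.34 TPM in the other 5 samples. It was picked out because it lies outside the main measurement and its value in TM replicate 3 is above that in every other sample.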

How the results depend on the processing

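No member was called in any of the 17 alternatives (HSPA1A entered 15 of them), and 0 to 2 members had an unadjusted p-value under 0.05. HSPA8, HSP90AB1 and HSPD1 had a difference below 0 in all of them, but of changing size. In this order it was -0.25, -0.038 and -0.21 after median-of-ratios rescaling, and -0.51, -0.27 and -0.40 after quantile normalization. Without mitochondrially encoded genes it was -0.48, -0.27 and -0.44. Without 1 sample it ran from -0.56 to -0.29, -0.32 to -0.15 and -0.53 to -0.24. The direction of the other members was not fixed. With median-of-ratios rescaling the difference was 0.012 for HSPA1B, 0.11 for HSP90AA1, 0.14 for HSPB1 and 0.011 for the summed members, without mitochondrially encoded genes it was -0.011 for HSPH1, and with copies and the read-through gene summed it was -0.25 for HSPE1. Leaving out 1 sample at a time gave ranges of -0.033 to 1.44 for HSPA1A, -0.46 to 0.014 for HSPA1B, -0.16 to 0.38 for HSPH1, -0.20 to 0.058 for HSP90AA1, -0.14 to 0.30 for DNAJB1, -0.24 to 0.10 for HSPB1, -0.071 to 0.67 for HSPE1 and -0.055 to 0.32 for the ratio of HSP90AA1 to HSP90AB1. For the other ratios they were 0.012 to 0.54 for HSPA1A plus HSPA1B over HSPA8 (lowest without TC replicate 2), 0.46 to 0.93 for HSPE1 over HSPD1, 0.31 to 0.76 for DNAJB1 over HSPA8 and 0.27 to 0.67 for HSPH1 over HSPA8, and for the summed members -0.28 to -0.094. The cause was not tested. Of all tested genes 19 were called, against 12 without the trend, 6 after median-of-ratios rescaling, 4 after quantile normalization, 7 with a pseudocount of 0.1, 1 without a filter, 47 with robust moderation and 1 to 17 without 1 sample. Of the other chaperone genes 1 was called with robust moderation (HSF4) and 0 to 1 without 1 sample (CRYAB, without TM replicate 3). Depth is unknown, and the 95% intervals of the members ran from -0.53 to 0.091 at the narrowest (HSP90AB1) to -0.77 to 2.53 at the widest (HSPA1A).

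Deviations from the group mean correlated at 0.21, -0.12 and -0.16 for samples of the same replicate number. For samples of different numbers they correlated at -0.23 to 0.32. With 3 samples per group this cannot tell whether the numbers pair samples, and the labels do not say. The main fit used no pairing. With the replicate number as a block, 1 gene of all tested and 0 members were called, and the block changed the call of no member.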
